A study of Ricinus communis with 18 samples.

Results

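The genes described here are transporters of castor (Ricinus communis) roots: a high-affinity nitrate transporter 2.1-like gene (ncbi_8275209), an NRT1/PTR FAMILY 2.7-like gene (ncbi_8289754) and a gene of the proton-dependent oligopeptide transport family (ncbi_8284629). They are 3 of 21332 genes in the table and were picked by identifier because their levels under stress moved in opposite directions, so the values of the members chose them. The levels and changes of these 3 genes are therefore given as a description with no test. RNA was sequenced from whole root systems in 6 groups of 3 libraries, 18 in all. Roots were kept in 15% PEG-6000 for 3 or 7 days. Roots of a further group, called rehydrated, had been in 15% PEG-6000 and were taken at 11 days, 4 days after its removal. Each of these groups has untreated control roots of the same day, which never received PEG. PEG-6000, a long polymer, lowers the water potential around the root without entering its cells. The labels give no cultivar, plant age or pooling. They do not say whether libraries of 1 group are separate plants, so spreads and p-values cover the variation between these libraries, which may be technical.

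Roots take up nitrate by systems of high and low affinity. NRT2 proteins carry the high-affinity uptake, and in Arabidopsis NRT2.1 works at the plasma membrane of outer root cells together with a small partner protein, NRT3.1, also called NAR2.1. The NRT1/PTR family, or NPF, is a large group of proton-coupled carriers for nitrate, small peptides, hormones and other solutes. In Arabidopsis, NPF2.7 is a nitrate efflux carrier of the root plasma membrane, and the NPF7 subfamily includes carriers that load nitrate into the xylem or take it back from it. Nitrate that stays in the root is reduced by nitrate reductase and nitrite reductase and enters amino acids through glutamine synthetase and glutamate synthase. Roles named in the text for castor genes are those of related proteins in Arabidopsis.

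The deposited product names of the 3 genes are those of proteins of other species, Jatropha curcas for the nitrate transporter and the NPF2.7-like gene and Populus trichocarpa for ncbi_8284629. The oligopeptide family name of ncbi_8284629 is general. Its symbol in the deposited table, PTR14, is one that the table also gives to an NPF7.2-like gene (ncbi_8266686) and to a gene named nitrate transporter 1.5-like (ncbi_8270605), so the name alone does not give its substrate. In the RefSeq annotation of assembly ASM1957865v1, used only for which genes lie side by side, the nitrate transporter is next to another NRT2.1-like gene (ncbi_8275206), and a high affinity nitrate transporter 2.6 gene (ncbi_8275207) lies 3 protein-coding genes away. The NPF2.7-like gene stands between 2 further NPF2.7-like genes, ncbi_8289753 and ncbi_8268215. The gene ncbi_8284629 has no family member among the 3 protein-coding genes on either side. Gene lengths implied by counts and FPKM were 1593 bases for the nitrate transporter, 1880 for the NPF2.7-like gene and 2332 for ncbi_8284629.

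Libraries held 6607760 to 10817476 counts. FPKM, read fragments scaled by gene length and library total, is used for levels, as deposited, except that for the 3 libraries of 11-day controls it was worked out here from their counts. Changes are log2 values with an approximate SE from edgeR's quasi-likelihood fit to the counts, scaled by TMM, a method that sets libraries to a common level over most genes. TMM factors were 0.765 to 0.806 in 3-day PEG roots and 1.04 to 1.099 in their controls, so a change from the fit lies above the change in FPKM at that time. All 3 genes passed the filter on low counts, as did 16085 genes in all. Markers of root endodermis, taken by product name, were mostly CASP-like genes, with Casparian strip proteins, SCARECROW and SHORT-ROOT. They summed to 549 to 2160 FPKM over all libraries, with 3 of the 32 listed genes at 0 counts throughout. At 3 days 4 of 26 tested were higher and 7 lower (edgeR, adjusted p below 0.05), or 42.3% called against 23.1% of all tested genes. The sums were 1590 to 2160 FPKM in PEG roots and 654 to 901 in controls. Markers of green tissue were counted in the same way. Of 42 tested photosynthesis genes, 10 were higher and 0 lower at 3 days (edgeR, adjusted p below 0.05), or 23.8% called. Of all tested genes 23.1% were called then, 11.7% higher and 11.4% lower. The median log2 change was 1.02 for the photosynthesis genes and -0.08 for all tested genes. The summed level of the photosynthesis list was 1140 to 2250 FPKM in PEG roots and 461 to 1130 in controls. At 7 days 30 were higher and 0 lower, or 71.4%, against 4.05% of all tested genes (2.59% higher), with 2850 to 3580 FPKM in PEG roots and 393 to 811 in controls, and 7 of the 56 listed were at 0 counts throughout. The root hair and epidermis list, taken by product name, held mostly COBRA-like genes, with ROOT HAIR DEFECTIVE 3 and expansin-A7 genes. At 3 days 2 of its 7 tested genes were lower and 0 higher, or 28.6% called against 23.1% of all tested genes. The list summed to 229 to 409 FPKM in PEG roots and 182 to 325 in controls. How far the genes of this list, of the endodermis list and of the xylem and phloem lists below mark those cells was not checked. The xylem list, also taken by product name, held mostly laccase and fasciclin-like genes, with some cellulose synthase genes. The phloem list held sieve element occlusion and phloem protein genes. Of the xylem markers 12 of 40 were lower at 3 days and 0 higher, or 30.0% called against 23.1% of all tested genes (11.4% lower). Their sums were 827 to 1150 FPKM in PEG roots and 1080 to 2140 in controls. At 7 days 1 xylem marker was lower, or 2.5% called against 4.05% of all tested genes. The median log2 change was -1.71, with 696 to 1010 FPKM in PEG roots and 1130 to 2190 in controls. Of the phloem markers 5 of 12 were lower and 0 higher at 3 days, or 41.7% called against the same 23.1%. Their sums were 40.8 to 48.3 FPKM in PEG roots and 83.5 to 114 in controls. At 7 days 2 phloem markers were lower, or 16.7% called against 4.05% of all tested genes. The median was -1.42, with 48.4 to 58.3 FPKM in PEG roots and 70.4 to 110 in controls. The part of cell type makeup in the levels given next was not tested, and in whole roots fewer cells of a type and less RNA per cell cannot be told apart.

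The nitrate transporter 2.1-like gene, ncbi_8275209, was nearly silent after 3 days in PEG. Its level was 0.85, 0.22 and 0.17 FPKM in 3-day PEG roots, against 32.66, 25.79 and 68.16 FPKM in 3-day controls. The PEG values rest on 12, 3 and 3 counts, and a count of 3 has an exact Poisson interval of 0.619 to 8.77, which covers counting error only. All 3 PEG libraries lay below all 3 controls. Summed over the group and scaled by TMM, 18 counts in PEG roots against 1711 in controls made a level 78.9-fold lower. The 95% counting interval of 49.8 to 133 leaves out the spread between libraries. At 7 days the gene had 28.31, 26.78 and 16.90 FPKM in PEG roots, against 49.21, 71.64 and 84.60 FPKM in controls. The groups again did not overlap, with the PEG level at 24.0 ± 6.19 FPKM and the control level at 68.5 ± 17.9 FPKM (SD, n = 3 each). Rehydrated roots of 11 days had 6.31, 11.20 and 4.29 FPKM, and the untreated roots of that day 21.75, 12.07 and 23.48 FPKM. Here too every rehydrated library was below every control, although the gap between the nearest libraries was small. The mean level was thus lowest in 3-day PEG roots, followed by rehydrated roots, 11-day controls, 7-day PEG roots, 3-day controls and 7-day controls. Neighbours in the upper part of that order, from 11-day controls onward, overlapped in their libraries.

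Gene ncbi_8284629 had the highest mean level of the 3 in 5 of the 6 groups and was low in the 3-day PEG group alone among the 6 groups. It had 4.36, 16.51 and 10.82 FPKM in 3-day PEG roots, against 87.38, 135.56 and 179.07 FPKM in 3-day controls. The highest PEG library was well below the lowest control. At 7 days the level was 141.63, 218.22 and 145.62 FPKM in PEG roots and 143.90, 107.11 and 197.06 FPKM in controls. These groups overlapped, with means of 168 ± 43.1 and 149 ± 45.2 FPKM for PEG roots and controls. At 11 days rehydrated roots had 98.78, 86.47 and 77.26 FPKM and controls 77.87, 59.68 and 48.63 FPKM. The rehydrated mean was 1.41 times the control mean, and the lowest rehydrated library was just below the highest control. In order of mean level, 3-day PEG roots stood apart below the other 5 groups, while each of those overlapped with its neighbour in the order. Among the 54 NRT1/PTR genes of the table this gene had the highest mean FPKM in 3-day controls, 7-day PEG roots and 7-day controls, where it made up 16.6 ± 4.7%, 24.6 ± 4.31% and 18.4 ± 3.29% of their summed FPKM. In 3-day PEG roots it ranked 9 with 2.96 ± 2.03%.

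The NPF2.7-like gene, ncbi_8289754, was high in 3-day PEG roots, where the other 2 genes were low. It had 31.94, 13.66 and 8.26 FPKM in 3-day PEG roots, against 3.34, 3.63 and 2.67 FPKM in 3-day controls. Every PEG library was above every control, and the PEG libraries spread widely, with a mean of 18 ± 12.4 FPKM against 3.21 ± 0.492 FPKM in controls (SD, n = 3 each). After 7 days the level was 3.26, 0.89 and 2.32 FPKM in PEG roots and 6.79, 3.34 and 3.30 FPKM in controls. The PEG libraries lay below the controls in FPKM by a very small margin. On the TMM scale they overlapped, with 7.58, 1.77 and 4.76 CPM (reads scaled to a common library total) in PEG roots and 11.4, 6.50 and 5.71 in controls. At 11 days rehydrated roots had 9.90, 11.45 and 27.59 FPKM and controls 7.73, 8.42 and 13.46 FPKM. Those groups overlapped, and 1 rehydrated library carried the higher mean of 16.3 ± 9.80 FPKM, against 9.87 ± 3.13 FPKM in controls. By mean level the order ran from 7-day PEG roots through 3-day controls, 7-day controls, 11-day controls and rehydrated roots to 3-day PEG roots. Of these steps, the one between 7-day and 11-day controls had no overlap. The gene ranked 7 among the 54 NRT1/PTR genes in 3-day PEG roots, with 4.93 ± 3.36% of their FPKM, and 25 in 3-day controls, with 0.405 ± 0.0826%.

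**Figure D1:**
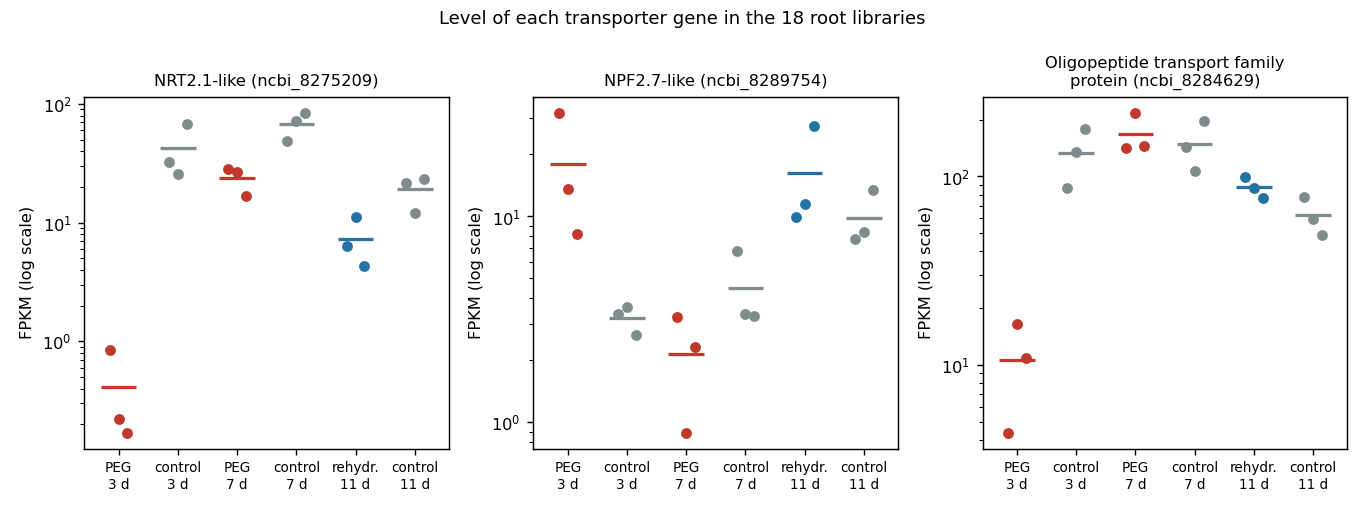
FPKM on a log axis for the nitrate transporter 2.1-like gene, the NPF2.7-like gene and the oligopeptide transport family gene in 6 groups of castor roots. Points are libraries and bars are means of 3. In 3-day PEG roots the nitrate transporter and the oligopeptide family gene sit at 0.17 to 0.85 and 4.36 to 16.51 FPKM, below every other library shown for them, while the NPF2.7-like gene sits at 8.26 to 31.94 FPKM, above its 3-day and 7-day libraries in the other groups.

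Set against controls of the same day, the fitted log2 changes of the 3 genes had their widest range at 3 days. The nitrate transporter changed by -6.24 ± 0.64, ncbi_8284629 by -3.23 ± 0.41 and the NPF2.7-like gene by 2.93 ± 0.58. As the genes were chosen for these moves, nothing is read from the share of all tested genes called at that time, 23.1%, or from the share whose groups did not overlap in FPKM, 41.4% (33.3% lower and 8.1% higher). At 7 days the changes were -1.26 ± 0.48 for the nitrate transporter, 0.42 ± 0.37 for ncbi_8284629 and -0.75 ± 0.57 for the NPF2.7-like gene. Among all tested genes 33.5% had groups apart in FPKM at 7 days, 25% lower and 8.44% higher, so the separations of the nitrate transporter and the NPF2.7-like gene were common ones. In rehydrated roots the changes were -1.45 ± 0.49, 0.45 ± 0.37 and 0.62 ± 0.54 in the same order of genes, and 16.7% of all tested genes had groups apart, 8.76% lower and 7.94% higher. The nitrate transporter was thus the one of the 3 whose fitted change had the same sign at all times. Single libraries weighed on several of these values. Without PEG library 1 the 3-day change of the nitrate transporter was -7.28 and that of the NPF2.7-like gene 2.22. Without PEG library 2 the 7-day change of the NPF2.7-like gene was -0.35 and without PEG library 1 it was -1.29. Its change at 11 days was 0.02 without rehydrated library 3.

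**Figure D2:**
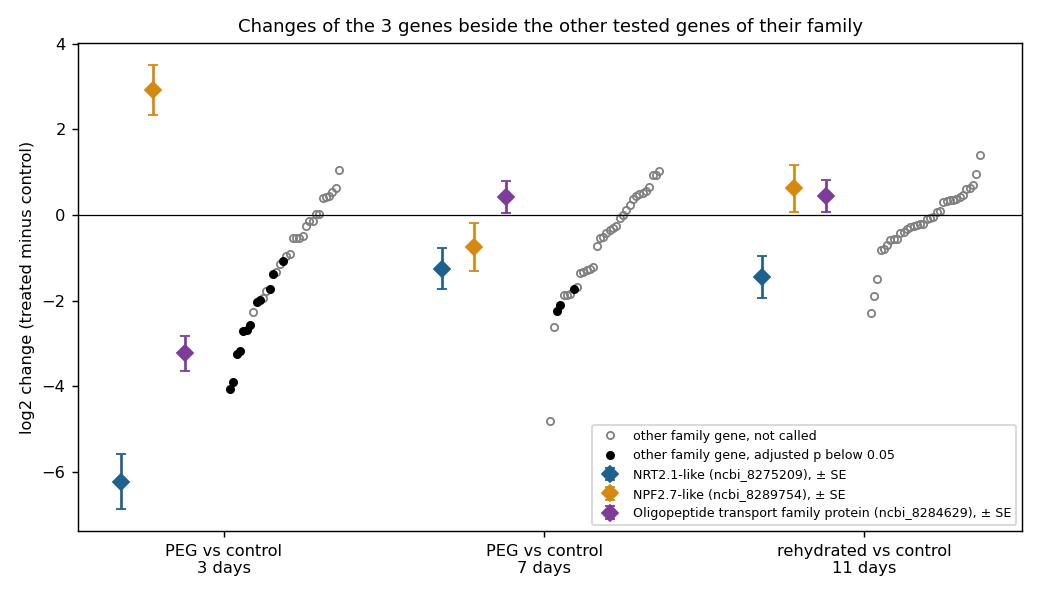
Log2 change (treated minus control) from edgeR for the 3 genes (diamonds with SE) beside the other 34 tested genes of the nitrate and peptide transporter family (circles, filled where the adjusted p is below 0.05), with the 3 comparisons side by side. At 3 days the 3 genes stand at -6.24, 2.93 and -3.23, and all filled circles are below 0.

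The untreated groups of 7 and 11 days stood apart in all 3 genes. The nitrate transporter averaged 19.1 FPKM in 11-day controls and 68.5 in 7-day controls, and ncbi_8284629 averaged 62.1 and 149 FPKM in those groups. The NPF2.7-like gene averaged 9.87 FPKM in 11-day controls and 4.48 in 7-day controls. The libraries of the 11-day and 7-day controls did not overlap in FPKM in any of the 3 genes, as in 10.6% of all tested genes (4.41% higher and 6.14% lower at 11 days). For the NPF2.7-like gene the gap was small on the TMM scale, where the lowest 11-day control had 11.5 CPM and the highest 7-day control 11.4 CPM. Among the treated groups, the nitrate transporter averaged 24.0 FPKM in 7-day PEG roots and 0.413 FPKM in 3-day PEG roots. That 3-day mean rests on 18 counts in all, so the ratio of 58.1 is loose: it was 123 without 3-day PEG library 1 and 44.9 without library 3. Gene ncbi_8284629 had in 7-day PEG roots 16.0 times its 3-day PEG mean, and 12.3 to 22.2 times with 1 library left out. The NPF2.7-like gene had 0.12 times its 3-day PEG mean, and 0.197 times without 3-day PEG library 1. Across the 18 libraries, log2 CPM of the nitrate transporter and ncbi_8284629 had a Pearson r of 0.838 (Spearman rho 0.781). Those of the NPF2.7-like gene had an r of -0.709 with the nitrate transporter (rho -0.732) and of -0.822 with ncbi_8284629 (rho -0.827). These correlations describe 6 groups of libraries that share treatment and day. The genes were chosen for opposite moves in these same libraries, so the signs of r are no separate finding.

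The nitrate transporter shares reads with its neighbour. Deposited counts of ncbi_8275209 and ncbi_8275206 carried fractions in the same 8 of 18 libraries, and in all 8 the fractions of the pair added up to 1 within 0.01. They were all 3-day and 7-day controls, 11-day control library 3 and rehydrated library 1, and no 3-day or 7-day PEG library was among them. The split of such reads between the copies is uncertain. The neighbour ncbi_8275206 was the more abundant copy. Its level was 47.17, 6.40 and 5.92 FPKM in 3-day PEG roots, against 433.08, 376.87 and 535.73 FPKM in 3-day controls, and it fell by 4.06 ± 0.81 on the log2 scale (edgeR, adjusted p = 0.00341). That call held under all 15 alternatives run for it. At 7 days it changed by -1.34 (adjusted p = 0.27) and in rehydrated roots by -1.50 (adjusted p = 0.529), so neither passed. The copy ncbi_8275209 made up 1.77%, 3.32% and 2.79% of the FPKM of the pair in 3-day PEG roots and 7.01%, 6.40% and 11.3% in 3-day controls. Its share was 10.9 ± 1.86% in 7-day PEG roots and 9.90 ± 1.35% in their controls, and 5.0 ± 0.621% in rehydrated roots and 5.99 ± 4.1% in theirs. Thus the shares of treated roots and controls were apart at 3 days and overlapped at 7 and 11 days. The 3-day PEG shares rest on 12, 3 and 3 counts of ncbi_8275209. At 3 days the controls carried fractions and the PEG libraries did not, and the part of the read split in the shares was not tested.

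**Figure D3:**
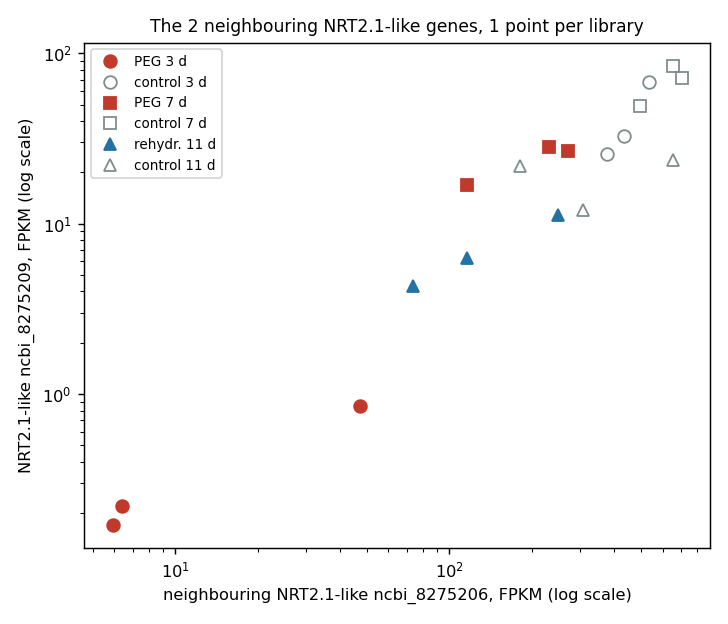
FPKM of the nitrate transporter 2.1-like gene ncbi_8275209 (vertical) against that of its neighbour ncbi_8275206 (horizontal), both on log axes, with 1 point per library. The 3-day PEG libraries lie at the lower left, with 0.17 to 0.85 FPKM for the first and 5.92 to 47.17 FPKM for the second gene.

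The partner gene NRT3.1-like (ncbi_8278271), named here because NRT2 proteins need it for transport, was far more abundant than either NRT2.1-like copy. It had 1307.44, 787.07 and 1150.97 FPKM in 3-day PEG roots, against 2645.28, 3021.55 and 3606.03 FPKM in 3-day controls. It fell by 1.08 ± 0.27 (edgeR, adjusted p = 0.0105), and the libraries did not overlap, but the call ended without PEG library 2 and in a fit of the 6 compared libraries. The pair of NRT2.1-like genes together amounted to 1.68 ± 1.73% of the NRT3.1-like FPKM in 3-day PEG roots, against 15.9 ± 2.26% in 3-day controls. At 7 days this ratio was 5.65 ± 1.63% in PEG roots and 19.7 ± 2.49% in controls, while NRT3.1-like itself had 4000 ± 445 FPKM in PEG roots and 3480 ± 228 in controls. The ratio was 9.16 ± 5.87% in rehydrated roots and 13.7 ± 6.17% in 11-day controls, with overlap between the libraries.

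Of the other genes of the nitrate and peptide transporter family, 58 were listed by product name and 34 had enough counts to be tested. At 3 days 12 of the 34 were lower in PEG roots and 0 higher at an adjusted p below 0.05, which is 35.3%, against 23.1% of all genes tested. Of all tested genes 11.4% were lower and 11.7% higher, or 1828 and 1883 genes, and 4159 and 912 with scaling by library totals. Without control library 1 or PEG library 2 the total of 3711 was 1900 or 2107. The median log2 change of these 34 genes was -1.02 and that of all tested genes -0.08. The list was drawn up with earlier results on nutrient transporters of these libraries known and is no independent evidence of their direction. The count of 0 higher was 1 under 4 alternatives. The peptide transporter PTR2-B gene (ncbi_8283318) was called higher with DESeq2 (0.65, adjusted p = 0.0173), with its size factors in edgeR (0.65, adjusted p = 0.0469) and without control library 3 (0.75, adjusted p = 0.0481). In unfiltered limma on log2(FPKM + 1), it was a further NPF2.7-like gene (ncbi_8258604, 0.42, adjusted p = 0.0416), which had 3, 3 and 1 counts in 3-day PEG roots and 0 in each 3-day control. Next to the transporter ncbi_8289754 itself, the NPF2.7-like gene ncbi_8268215 fell by 2.57 ± 0.76 (adjusted p = 0.0248). It had 0.40, 0.41 and 0.28 FPKM in PEG roots against 5.62, 0.92 and 2.41 FPKM in controls. This call ended without control library 1, PEG library 2 or PEG library 3. The other neighbour of ncbi_8289754, ncbi_8289753, had a single count in the 18 libraries.

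After the NRT2.1-like copy, the largest decreases of the family at 3 days were those of a pair of NPF2.11 genes and an NPF2.10-like gene. Their namesakes in Arabidopsis are carriers of glucosinolates. Gene ncbi_8276017 had 5.69 ± 5.43 FPKM in PEG roots and 116 ± 29.8 FPKM in controls (log2 change -3.91 ± 0.59, adjusted p = 0.000647). Gene ncbi_8271326 had 1.05 ± 0.153 FPKM in PEG roots and 13.4 ± 5.41 FPKM in controls (-3.24 ± 0.43, adjusted p = 0.000259). The NPF2.10-like gene, ncbi_8280572, changed by -3.17 ± 0.65 (adjusted p = 0.0037). The NPF6.3 gene (ncbi_8279635), named after its values were seen, is the counterpart of the dual-affinity carrier and nitrate sensor of Arabidopsis and fell by 1.99 ± 0.54 (adjusted p = 0.0168). It had 14.4 ± 9.86 FPKM in PEG roots and 77.4 ± 37.2 FPKM in controls, and its call ended without control library 1 or 3. Family genes that did not pass in edgeR, also named after their values were seen, included the PTR2-B gene ncbi_8283318, at 0.62 with an adjusted p of 0.0589, and the NPF7.2-like gene that shares the symbol of ncbi_8284629, at -0.48 with an adjusted p of 0.566.

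At 7 days 3 of the 34 family genes were lower and 0 higher, or 8.82% against 4.05% of all genes tested (1.46% lower and 2.59% higher), with a median of -0.46 against -0.06. They were the NPF2.11 gene ncbi_8271326 (-2.24 ± 0.40, adjusted p = 0.00976), the high affinity nitrate transporter 2.5-like gene ncbi_8273477 (-2.11 ± 0.45, adjusted p = 0.0224) and an NPF4.6-like gene, ncbi_8260881, named after its value was seen (-1.73 ± 0.40, adjusted p = 0.0296). NRT2.5 of Arabidopsis acts in nitrogen-starved roots. The castor NRT2.5-like gene had 1.00 ± 0.656 FPKM in PEG roots and 5.12 ± 1.30 FPKM in controls. Each of the 3 calls ended without PEG library 1. The NRT2.5-like and NPF4.6-like calls also ended without control library 1 or 2, and the NPF4.6-like call without PEG library 3. The count of 3 was 0 without PEG library 1, 1 without control library 1 or 2, 5 without PEG library 2 and 0 in a fit of the 6 compared libraries. The 652 calls among all genes were 80 without control library 1, 47 without control library 2, 56 without PEG library 1 and 125 without PEG library 3. In rehydrated roots 0 of the 34 genes were called by edgeR, as were 0 by DESeq2, with 2 and 5 at an unadjusted p below 0.05 by the 2 tools. Of all genes tested 0.0124% were called there, 0.00622% higher and 0.00622% lower, and the median of the family was -0.15.

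Nitrogen assimilation genes changed in both directions at 3 days. Of 18 tested, 2 were higher and 4 lower, 33.3% against 23.1% of all genes, with a median of -0.22. Asparagine synthetase (ncbi_8278939), which stores nitrogen in an amide, rose by 3.16 ± 0.71 (adjusted p = 0.00615), with 225 ± 214 FPKM in PEG roots and 34.3 ± 15.7 FPKM in controls. Glutamate dehydrogenase 2 (ncbi_8289684) rose by 1.37 ± 0.37 (adjusted p = 0.017), a call that ended with scaling by library totals, with limma on FPKM, in a fit of the 6 compared libraries and without PEG library 1. Ferredoxin-dependent glutamate synthase (ncbi_8270489) fell by 1.34 ± 0.27 (adjusted p = 0.00344). An ammonium transporter (ncbi_8258661) fell by 1.32 ± 0.43 (adjusted p = 0.037) and a gene annotated as periplasmic nitrate reductase (ncbi_8264118), a bacterial enzyme name, by 2.26 ± 0.64 (adjusted p = 0.0196). Both calls ended without control library 1, PEG library 2 or PEG library 3, and that of the ammonium transporter also without control library 3. Ferredoxin-nitrite reductase (ncbi_8275300), named after its value was seen, fell by 0.97 ± 0.27 (adjusted p = 0.0199), with 134.33, 103.13 and 126.77 FPKM in PEG roots and 251.10, 439.67 and 274.05 FPKM in controls. Its call ended without control library 2, PEG library 2 or PEG library 3. Over the list, the count of 6 was 3 without PEG library 2. The castor nitrate reductase (ncbi_8274143), named for its place in the pathway, had 244.18, 157.61 and 173.38 FPKM in 3-day PEG roots and 77.23, 134.27 and 167.84 FPKM in controls, and its change of 1.03 ± 0.46 did not pass (adjusted p = 0.112). At 7 days 0 of the 18 genes were called by edgeR or DESeq2, with 0 at an unadjusted p below 0.05 in edgeR and 1 in DESeq2. At 11 days 0 were called by either tool, with 2 at an unadjusted p below 0.05 in each.

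Genes of nitrate signalling and anion channels had 3 higher and 2 lower of 26 tested at 3 days, 19.2% against 23.1% of all genes, with a median of -0.18. A BTB/POZ and TAZ domain protein 1-like gene (ncbi_8278242) rose by 3.33 ± 0.60 (adjusted p = 0.00197), with 87.9 ± 63.0 FPKM in PEG roots and 11.9 ± 3.11 FPKM in controls. It is of a group that in Arabidopsis lowers nitrate uptake genes. The other tested genes of that group, named after their values were seen, did not pass in edgeR. They were ncbi_8261007 (-0.19, adjusted p = 0.685), ncbi_8283358 (-0.74, adjusted p = 0.234) and XLOC_008948 (0.58, adjusted p = 0.389). Protein NLP2 (ncbi_8281449), of the transcription factors that answer to nitrate, fell by 1.95 ± 0.25 (adjusted p = 0.000228), with 1.87 ± 0.445 FPKM in PEG roots and 10.1 ± 0.626 FPKM in controls. Other genes with an NLP2 name, named after their values were seen, did not pass in edgeR. Of these, ncbi_8262290 changed by 0.52 ± 0.32 (adjusted p = 0.255), with 75.4 FPKM in PEG roots and 72.3 FPKM in controls. The other, ncbi_8282961, changed by 0.86 ± 0.64 (adjusted p = 0.341). NLP7-like (ncbi_8286258) fell by 1.04 ± 0.30 (adjusted p = 0.0201), and its call ended without control library 2 or 3 and without PEG library 1 or 3. LOB domain proteins 38-like (ncbi_8288504, 1.21 ± 0.38, adjusted p = 0.0334) and 37 (ncbi_8283348, 1.17 ± 0.41, adjusted p = 0.0483), whose Arabidopsis counterparts repress nitrate-responsive genes, were higher. The first call ended under 8 of 15 alternatives, among them leaving out control library 1, PEG library 1 or PEG library 2. The call of protein 37 ended under 12, including leaving out any library of the comparison other than PEG library 3. Leaving out a single library left 2 to 4 calls of 5, with 2 without PEG library 1 and 3 without PEG library 2 or any 1 of the controls. Scaled by library totals, 1 was higher and 7 lower. At 7 days 0 were called by edgeR and 1 by DESeq2, with 3 at an unadjusted p below 0.05 in edgeR. At 11 days 0 were called by either tool, with 7 at an unadjusted p below 0.05 in each.

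The genes most like each transporter over the 18 libraries, by Pearson r of log2 CPM among 15708 genes with a described product, were of different kinds. For the nitrate transporter the closest was the neighbouring NRT2.1-like copy (r = 0.952), with which it shares reads, followed by a geraniol 8-hydroxylase-like gene (ncbi_8272130, r = 0.942) and a nicotianamine synthase-like gene (ncbi_8258799, r = 0.94), which makes a metal chelator. An ankyrin repeat and KH domain protein (ncbi_8282088, r = 0.933) and zinc finger CCCH domain-containing protein 30 (ncbi_8274455, r = 0.922) came next. The NPF2.7-like gene was most like proline oxidase (ncbi_8272332, r = 0.892), which breaks down proline. Proline oxidase had 37.1 FPKM in 3-day PEG roots and 8.45 in their controls, 2.75 in 7-day PEG roots and 7.18 in their controls, and 23.2 in rehydrated roots and 11.5 in theirs. The mean of proline oxidase was thus above that of controls at 3 and 11 days and below it at 7 days, as was the mean of the NPF2.7-like gene. Proline oxidase was picked for its high r over these same libraries, so this likeness is no separate finding. A neutral/alkaline invertase (ncbi_8261302, r = 0.872), a thaumatin-like protein (ncbi_8270002, r = 0.868), a glycosyltransferase with a Core-2/I-branching name (ncbi_8284913, r = 0.867) and an E3 ubiquitin ligase MARCH1-like (ncbi_8267355, r = 0.864) followed. For ncbi_8284629 they were inorganic pyrophosphatase 1-like (ncbi_8275612, r = 0.913), the N-acetyltransferase HLS1 (ncbi_8283352, r = 0.909) and an LRR receptor-like kinase (ncbi_8260794, r = 0.908). COBRA-like protein 7 (ncbi_8265475, r = 0.905) and MIZU-KUSSEI 1 (ncbi_8280404, r = 0.897), a protein of root bending towards water in Arabidopsis, completed the 5. These correlations rest on libraries of 6 groups with shared treatment and carry no p-value.

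**Figure D4:**
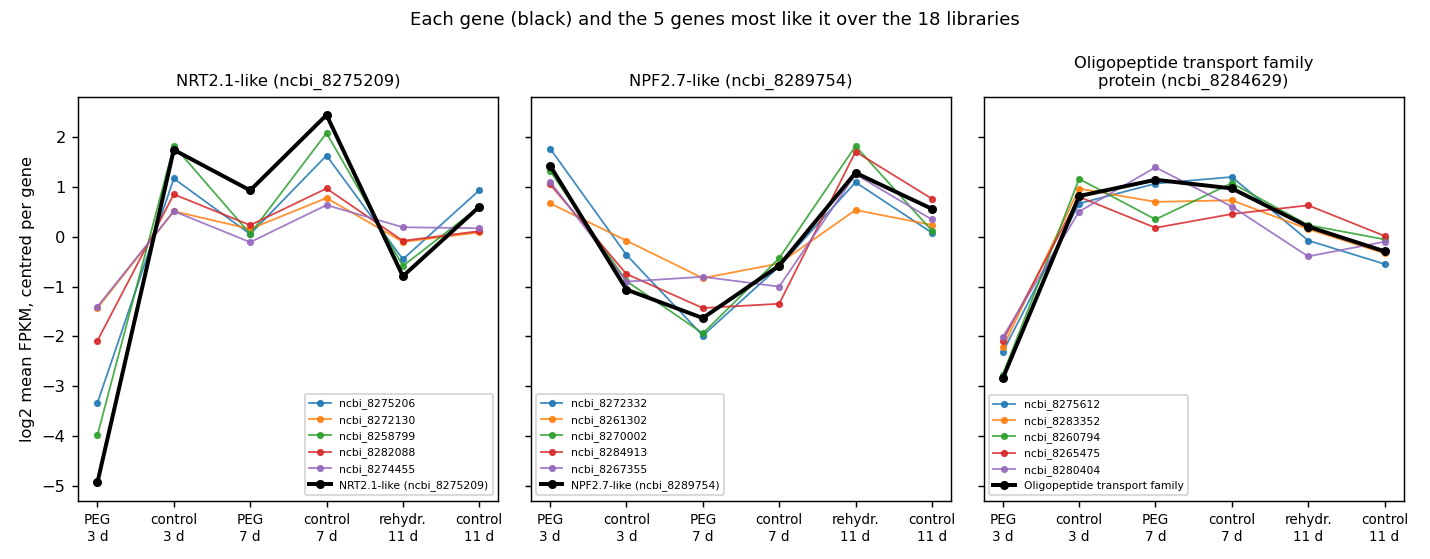
Log2 of mean FPKM, centred per gene, in 6 groups for each transporter (black) and the 5 genes with the highest Pearson r over the 18 libraries (colours, by identifier). The nitrate transporter and ncbi_8284629 have their lowest point in 3-day PEG roots, and the NPF2.7-like gene has its highest point there (18 FPKM) and its lowest in 7-day PEG roots (2.16 FPKM).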

How the data were processed

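RNA came from a Trizol preparation and an mRNA library kit, per the labels. No source used here gives the aligner, the counter or the genome build. The deposited table holds expected counts (estimated reads per gene, at least 98.3% whole in every library) and FPKM, both named so per the file headers. Columns were matched to libraries by sample title. In the 11-day controls title and description point to different FPKM columns, so these 3 columns were not used, and FPKM of those libraries was computed from their counts, library totals and the gene lengths that the other 15 libraries imply. In each of the 15, predicted from the others in the same way, the median error was at most 0.0389% over genes of at least 1 FPKM. Reads shared by paralogs may be split in ways that cannot be seen here.

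Counts were rounded, filtered with filterByExpr (minimum count 10, minimum total 15), scaled by TMM and fitted over all 18 libraries with 1 mean per group by edgeR 4.0.16 (quasi-likelihood, robust; R 4.3.3). Genes with an adjusted p (Benjamini-Hochberg over 16085 genes, within each of 3 comparisons) below 0.05 were called. The SE is the absolute log2 change over the square root of F. Replicates differed beyond counting noise (chi-square per gene at least 22.3). The scripts were tested on simulated data.

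Members and lists, drawn up by product name, were chosen with earlier results of these data known. List genes were named by rule: called genes with a mean of at least 5 FPKM in a compared group, up to 4 of each direction from the family and 3 from other lists, and the 5 genes most like each transporter. Others are marked. Alternatives were DESeq2 1.42.0, its size factors, library totals, no filter, only the libraries compared, a replicate block, an adjusted p below 0.01, limma 3.58.1 on log2(FPKM + 1) or log2(FPKM + 0.1), with FPKM of at least 1 in 3 libraries or no filter, and each library left out.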

Additional observations from a re-analysis of the deposited data

Results flagged for a closer look

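The NPF2.7-like gene ncbi_8289754 had effects of opposite sign at the first and second time. Its log2 change was 2.93 at 3 days, with all 3 PEG libraries above all 3 controls, and -0.75 at 7 days, with all 3 PEG libraries below all 3 controls in FPKM. The nearest libraries at 7 days were 3.26 FPKM in PEG roots and 3.30 FPKM in controls, and on the TMM scale the groups overlapped. The difference between the times was not tested, since the gene was chosen for its moves.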

How the results depend on the processing

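Each of the 9 member changes kept its sign under all 15 alternatives run for it. The 3-day change of the nitrate transporter was -4.84 with limma on log2(FPKM + 1), with or without the filter, and -7.28 to -5.67 with 1 library left out. That of the NPF2.7-like gene was 1.97 with the same limma settings. The offset of 1 lowers changes of genes with low FPKM by construction, and FPKM also lacks the TMM scaling of the main fit. The part of each in these lower values was not tested. With only the 6 libraries compared, calls at 3 days were 1285 of all genes, 7 of the family, 2 of assimilation and 2 of signalling. At 7 days they were 170 and 0 for all genes and the family. That fit has fewer samples by construction, and the cause of its lower counts was not tested. At an adjusted p below 0.01 calls were 1433, 7, 2 and 2 at 3 days, and 70 and 1 at 7 days. Scaling by library totals gave 8 signalling genes at 3 days and put the all-gene median at -0.523 at 3 days (-0.082 with TMM) and at -0.307 at 7 days (-0.059 with TMM). At 7 days DESeq2 called 1689 genes, 8 of the family and 1 of signalling, and limma on log2(FPKM + 1) called 6 family genes, or 5 without the filter. At 11 days edgeR called 2 genes, against 58 with DESeq2, 1 with library totals, 0 without a filter, with only the 6 libraries or at an adjusted p below 0.01, and 4 with each limma setting. The cause was not tested for these. With 1 library left out, calls ranged over 1900 to 3961 (all genes), 9 to 12 (family), 3 to 6 (assimilation) and 2 to 4 (signalling) at 3 days, 47 to 824 and 0 to 5 for all genes and the family at 7 days, and 0 to 3 for all genes at 11 days. Of 14 genes named by the rule at 3 days 6 lost their call under at least 1 alternative, and at 7 days 2 of 2, and none changed sign. Called genes named outside the rule lost calls too. At 3 days ncbi_8278271 did so under 2 of 15 alternatives, ncbi_8279635 under 3, and ncbi_8268215 and ncbi_8275300 under 4 each. At 7 days ncbi_8260881 did so under 5. At 3 days libraries with the same number deviated together in 2 of 3 pairs (correlations 0.625, 0.501 and 0.08), and 5 of 6 libraries were closest to their own number, a hint of pairing from the data. At 7 and 11 days the correlations were -0.23 to 0.50 and -0.16 to 0.16, with 2 of 6 closest each time. Not every pair was above 0.1 at any time, so no pairing was taken. The replicate block gave 3401, 534 and 2 calls at the 3 times, with 10 and 3 of the family at 3 and 7 days. Depth limits the nitrate transporter in 3-day PEG roots, with 3 counts in 2 libraries.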
